A study of Mus musculus with 26 samples.

Results

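The TGF-beta, activin and BMP signals of mouse visceral fat were followed here through 10 genes: the ligand genes Tgfb1, Tgfb2, Tgfb3, Inhba, Inhbb and Bmp4, the receptor genes Tgfbr1, Tgfbr2 and Acvr1c, and the secreted inhibitor Fst. They are the rows, among the 39017 genes of both count tables, whose symbol equals one of these names, and each symbol was found once. RNA was sequenced from the epididymal fat of male C57BL/6J mice that started their diets at 9 to 10 weeks of age. Lean mice (LFD) ate a 10% fat diet for 12 weeks, obese mice (HFD) ate a 60% fat diet for 12 weeks, and formerly obese mice (SW) ate the 60% fat diet for 9 weeks and then the 10% fat diet for 3 weeks. The labels name no engineered allele and no agent besides the diet, and the groups share strain, sex and depot. The fat pads were digested with collagenase, which gave floating adipocytes and a pellet of stromal vascular cells (SVC) after lysis of red blood cells. The comparisons ask how these transcripts differed between the diet groups in each fraction and how much of the difference remained after weight loss.

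The adipocyte table holds 3 libraries of each diet group, and the SVC libraries used here number 1 from LFD, 2 from HFD and 3 from SW mice. Each library is called by the number in its column name, which ties it to no mouse, so p-values measure the spread between libraries only. Totals ran from 5781902 to 23725647 counts. The SVC libraries of HFD mice stood apart from each other: mitochondrial transcripts took 6.34% of the counts of library 212 and 33.5% of library 411, against 4.36% to 9.54% in the other SVC libraries. Hemoglobin transcripts took 0.287% of the counts of library 212 and 3.09% of library 411, with a range of 2.76% to 5.15% over the SVC libraries besides 212. Levels are given in CPM, the estimated counts of a gene per 1000000 counts of its library, with library totals adjusted by TMM factors within each fraction. Summed over 8 adipocyte marker genes, the level was 11630 to 48960 CPM in adipocyte libraries and 621.9 to 1265 CPM in SVC libraries, as the labels have it. The adipocyte fraction also held transcripts of other cells: the 11 macrophage markers summed to 501.6 to 944.2 CPM in LFD, 7700 to 9242 CPM in HFD and 5297 to 7400 CPM in SW libraries. In such mixed samples, fewer cells of a type and less RNA per cell cannot be told apart.

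Ligands of the TGF-beta family are secreted dimers that bring together a type II and a type I receptor kinase at the cell surface, and the type I receptor then phosphorylates Smad proteins, which enter the nucleus and regulate transcription. TGF-beta and activin act mainly through Smad2 and Smad3, and BMPs through Smad1, Smad5 and Smad9. In fat, TGF-beta is known to drive fibrosis and to hold back the formation of new adipocytes, Bmp4 to commit progenitors to the adipocyte lineage, and the receptor ALK7, encoded by Acvr1c, to restrain lipolysis in adipocytes.

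The promoters of 4 of the genes are shown because the results turn on them: the ligand Tgfb1 and the receptor pair Tgfbr1 and Tgfbr2, which were all higher in adipocytes of obese mice, and Acvr1c, which was lower and nearly restricted to adipocytes. Each window runs 5′ to 3′ from 250 bases before to 50 bases after the most upstream start in RefSeq on GRCm38.p6, and capitals mark, on either strand, 4 short motifs: the Sp1 box GGGCGG, the NF-Y box, spelled CCAAT, the start-site element with letters TATAAA, and the Smad-binding core with letters CAGAC. The windows are chr7:25686752-25687051 (+ strand) for Tgfb1, chr4:47352972-47353271 (+ strand) for Tgfbr1, chr9:116175314-116175613 (- strand) for Tgfbr2 and chr2:58357709-58358008 (- strand) for Acvr1c.
Tgfb1: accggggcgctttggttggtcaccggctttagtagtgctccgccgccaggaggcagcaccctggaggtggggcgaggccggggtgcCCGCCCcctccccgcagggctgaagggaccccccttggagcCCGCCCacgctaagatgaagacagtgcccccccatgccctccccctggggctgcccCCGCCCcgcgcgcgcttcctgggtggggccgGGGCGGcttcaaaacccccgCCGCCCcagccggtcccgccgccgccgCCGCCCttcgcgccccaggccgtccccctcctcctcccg
Tgfbr1: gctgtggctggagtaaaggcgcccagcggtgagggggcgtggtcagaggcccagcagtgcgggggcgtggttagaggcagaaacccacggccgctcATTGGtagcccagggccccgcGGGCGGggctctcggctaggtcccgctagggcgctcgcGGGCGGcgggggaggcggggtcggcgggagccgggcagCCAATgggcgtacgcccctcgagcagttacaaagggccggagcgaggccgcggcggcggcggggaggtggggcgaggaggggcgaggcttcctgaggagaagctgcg
Tgfbr2: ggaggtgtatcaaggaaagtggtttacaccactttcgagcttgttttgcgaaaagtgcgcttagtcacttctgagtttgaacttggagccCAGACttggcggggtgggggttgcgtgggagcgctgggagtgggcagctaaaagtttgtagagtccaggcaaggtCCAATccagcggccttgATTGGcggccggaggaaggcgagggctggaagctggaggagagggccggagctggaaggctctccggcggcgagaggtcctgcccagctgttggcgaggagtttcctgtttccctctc
Acvr1c: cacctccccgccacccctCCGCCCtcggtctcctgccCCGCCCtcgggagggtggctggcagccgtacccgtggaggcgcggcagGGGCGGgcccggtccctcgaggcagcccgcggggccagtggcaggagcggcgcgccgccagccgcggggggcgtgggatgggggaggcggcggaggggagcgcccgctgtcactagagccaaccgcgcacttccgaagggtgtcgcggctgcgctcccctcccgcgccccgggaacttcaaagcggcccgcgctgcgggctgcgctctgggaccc
The Tgfb1 window holds the Sp1 box 6 times and none of the other motifs. The Tgfbr1 window holds the Sp1 box 2 times and the NF-Y box 2 times. The Tgfbr2 window has no Sp1 box but holds the NF-Y box 2 times and the Smad-binding core 1 time, and the Acvr1c window holds the Sp1 box 3 times. The start-site element is in none of the 4 windows, and no marked base belongs to 2 motifs. Over all 32851 promoter windows of this length, 35.7% hold the Sp1 box, 37.4% the NF-Y box, 13.6% the start-site element and 49.6% the Smad-binding core. RefSeq windows were found for 8 of the 10 genes (not for Tgfb3 and Fst).

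In the adipocyte fraction, the transcripts of most of the 9 genes tested differed between obese and lean mice (HFD against LFD). Of the 9 genes tested, Tgfb1, Tgfbr1, Tgfbr2, Inhbb and Fst were higher and Tgfb3, Acvr1c and Bmp4 were lower in HFD mice, by edgeR's quasi-likelihood test with a Benjamini-Hochberg adjusted p under 0.05. This makes 5 higher and 3 lower, beside 26.5% and 25.0% of all 14461 genes tested (51.5% called in all). The groups did not overlap for any of these 8 genes, as was the case for 32.1% of all genes upwards and 30.5% downwards. Leaving out 1 library at a time left between 6 and 8 of them called.

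Among the ligands, Tgfb1 (ENSMUSG00000002603, chr7:25687002-25705077 on GRCm38) showed the clearest difference. It stood at 51.5, 50.7 and 45.1 CPM in LFD libraries 404, 405 and 406, at 129, 109.5 and 132 CPM in HFD libraries 401, 402 and 403, and at 109, 92.3 and 93.6 CPM in SW libraries 407, 408 and 409. The LFD libraries lay well below the others, and the SW libraries lay below all HFD libraries, with SW library 407 close to HFD library 402. Tgfb1 rose 2.52-fold in HFD against LFD (log2 fold change 1.33, SE 0.12, adjusted p = 2.75e-05 by edgeR) and was still 2-fold higher in SW than in LFD mice (log2 fold change 1.00, SE 0.12, adjusted p = 0.000434). Between SW and HFD mice it differed by -0.33 on the log2 scale (SE 0.12), which missed the threshold (adjusted p = 0.0577). That difference passed with DESeq2 (adjusted p = 0.0355), with a correction for transcript length (0.0388), without HFD library 402 (0.028) and without SW library 407 (0.0357).

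The other TGF-beta genes went another way. Tgfb3 (ENSMUSG00000021253, chr12:86056745-86079041) was at 25.7, 27.8 and 24.4 CPM in LFD, at 19.99, 18.2 and 17.8 CPM in HFD and at 14.4, 18.4 and 21.3 CPM in SW libraries. Every HFD and SW library was below every LFD library. Tgfb3 fell by 0.48 on the log2 scale in HFD against LFD (SE 0.15, adjusted p = 0.0197 by edgeR) and by 0.52 in SW against LFD (SE 0.15, adjusted p = 0.0363). The first call was lost without LFD library 405 (adjusted p = 0.0801) or without HFD library 402 (0.0542) or 403 (0.0753). The second was lost in 7 of 18 alternatives, with adjusted p-values up to 0.125, among them leaving out LFD library 404, 405 or 406, HFD library 403 or SW library 407 or 408.

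Tgfb2 (ENSMUSG00000039239, chr1:186622792-186705989) was scarce, at 3.96, 3.40 and 2.90 CPM in LFD, 3.16, 1.84 and 3.49 CPM in HFD and 1.58, 1.86 and 2.36 CPM in SW libraries, from 15 to 78 counts each. HFD and LFD libraries overlapped (log2 fold change -0.28, 95% interval -0.86 to 0.30, adjusted p = 0.454 by edgeR). The SW libraries all lay below the LFD libraries, but the difference of -0.81 (SE 0.31) did not pass (adjusted p = 0.102).

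Of the activin subunits, Inhbb (ENSMUSG00000037035, chr1:119415465-119422248), which encodes the beta-B subunit that forms activin B, was the one found in quantity. Its levels were 34.4, 27.4 and 29.3 CPM in LFD, 40.7, 49.97 and 42.3 CPM in HFD and 19.97, 32.8 and 35.6 CPM in SW libraries. The HFD libraries lay above all others, and LFD and SW libraries overlapped. Inhbb rose 1.47-fold in HFD against LFD (log2 fold change 0.55, SE 0.20, adjusted p = 0.0395 by edgeR) and was 1.499-fold lower in SW than in HFD mice (log2 fold change -0.58, SE 0.20, adjusted p = 0.0457). Both calls were close to the threshold: the rise was lost in 6 of 18 alternatives (without LFD library 405 or 406, without HFD library 402 or 403, with upper-quartile factors and with the length correction; adjusted p up to 0.131). The fall was lost in 11 of 18, among them leaving out any LFD or HFD library or SW library 407 or 408 (adjusted p up to 0.103).

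Inhba (ENSMUSG00000041324, chr13:16011851-16031621), the gene of the activin A subunit, was close to absent. It had 1, 2 and 0 counts in LFD, 5, 10 and 12 counts in HFD and 0, 0 and 2 counts in SW libraries, and so it did not pass the filter on low counts. Each HFD library was above every other adipocyte library, at 0.376, 0.417 and 0.537 CPM. With no filter, edgeR gave a log2 difference of 2.28 between HFD and LFD (SE 0.97, adjusted p = 0.0892) and of -3.01 between SW and HFD (SE 1.00, adjusted p = 0.0468), values that rest on these few counts and, with zeros in them, on the prior count of the fit.

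Bmp4 (ENSMUSG00000021835, chr14:46383520-46390669) was at 6.82, 8.15 and 5.93 CPM in LFD, at 3.16, 1.79 and 2.24 CPM in HFD and at 1.89, 4.27 and 4.36 CPM in SW libraries. All LFD libraries lay above all HFD and SW libraries, and the SW library 407 was within the HFD range. Bmp4 was 2.97-fold lower in HFD than in LFD mice (log2 fold change -1.57, SE 0.33, adjusted p = 0.003 by edgeR), the largest fall among the 9 genes tested. In SW mice it lay between the other groups, -0.98 against LFD (SE 0.32, adjusted p = 0.0657) and 0.60 against HFD (SE 0.33, adjusted p = 0.187), and neither difference passed. The first passed with DESeq2 (adjusted p = 0.0296) and limma-voom (0.0434), and the second without SW library 407 (0.88, adjusted p = 0.042).

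The transcripts of the TGF-beta receptors were higher in HFD than in LFD libraries. Tgfbr1 (ENSMUSG00000007613, chr4:47353222-47414931), the type I receptor, was at 22.99, 22.3 and 20.04 CPM in LFD, at 93.2, 71.4 and 85.1 CPM in HFD and at 40.2, 55.3 and 48.2 CPM in SW libraries. The groups lay apart in full, with SW libraries between LFD and HFD libraries. Tgfbr1 rose 3.82-fold in HFD against LFD (log2 fold change 1.93, SE 0.15, adjusted p = 1.24e-05 by edgeR), the largest rise of the 9 genes tested. It fell by 0.79 from HFD to SW (SE 0.14, adjusted p = 0.00622) and was still 2.20-fold higher in SW than in LFD mice (log2 fold change 1.14, SE 0.15, adjusted p = 0.000617). These 3 calls were kept under each of the 18 alternatives run, with log2 fold changes of 1.67 to 2.05 for HFD against LFD.

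Tgfbr2 (ENSMUSG00000032440, chr9:116084293-116175360), the type II receptor, was at 117, 100.5 and 76.2 CPM in LFD, at 233, 153 and 189 CPM in HFD and at 109, 123 and 106 CPM in SW libraries. The HFD libraries lay above all others, and SW and LFD libraries overlapped. Tgfbr2 rose 1.961-fold in HFD against LFD (log2 fold change 0.97, SE 0.19, adjusted p = 0.00201 by edgeR) and fell by 0.76 from HFD to SW (SE 0.19, adjusted p = 0.0156). Between SW and LFD mice it differed by 0.21 (95% interval -0.16 to 0.58, adjusted p = 0.49). In SW against HFD, the genes tested with long transcripts (4170 bases and more) had a median log2 fold change of -0.27 and those with short transcripts (up to 2500 bases) one of 0.38. In HFD against LFD these medians had the opposite signs, 0.195 for long and -0.315 for short transcripts. The longest Tgfbr2 transcript has 8092 bases, and corrected for length its fall was -0.34 (adjusted p = 0.107). The fall also missed the threshold without HFD library 401 (adjusted p = 0.0502) or 403 (0.0507).

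Acvr1c (ENSMUSG00000026834, chr2:58267453-58357895), which encodes ALK7, went the opposite way. It was at 72.9, 75.8 and 112 CPM in LFD, at 26.0, 49.1 and 42.7 CPM in HFD and at 36.8, 66.0 and 64.1 CPM in SW libraries. Every LFD library was above every HFD and SW library, and HFD and SW libraries overlapped. Acvr1c was 2.20-fold lower in HFD than in LFD mice (log2 fold change -1.14, SE 0.28, adjusted p = 0.00741 by edgeR). In SW mice it differed by -0.64 from LFD (SE 0.28, adjusted p = 0.15) and by 0.50 from HFD mice (95% interval -0.05 to 1.05, adjusted p = 0.191).

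Fst (ENSMUSG00000021765, chr13:114452290-114458951) encodes follistatin, which binds and neutralises activins. Its levels were 8.56, 7.58 and 7.78 CPM in LFD, 14.8, 9.64 and 14.8 CPM in HFD and 14.3, 18.0 and 14.6 CPM in SW libraries. All HFD and SW libraries lay above the LFD libraries, and HFD and SW libraries overlapped. Fst rose 1.64-fold in HFD (log2 fold change 0.72, SE 0.19, adjusted p = 0.0108 by edgeR) and was 1.98-fold higher in SW than in LFD mice (log2 fold change 0.98, SE 0.19, adjusted p = 0.00636). From HFD to SW it differed by 0.27 (95% interval -0.09 to 0.62, adjusted p = 0.28).

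**Figure D1:**
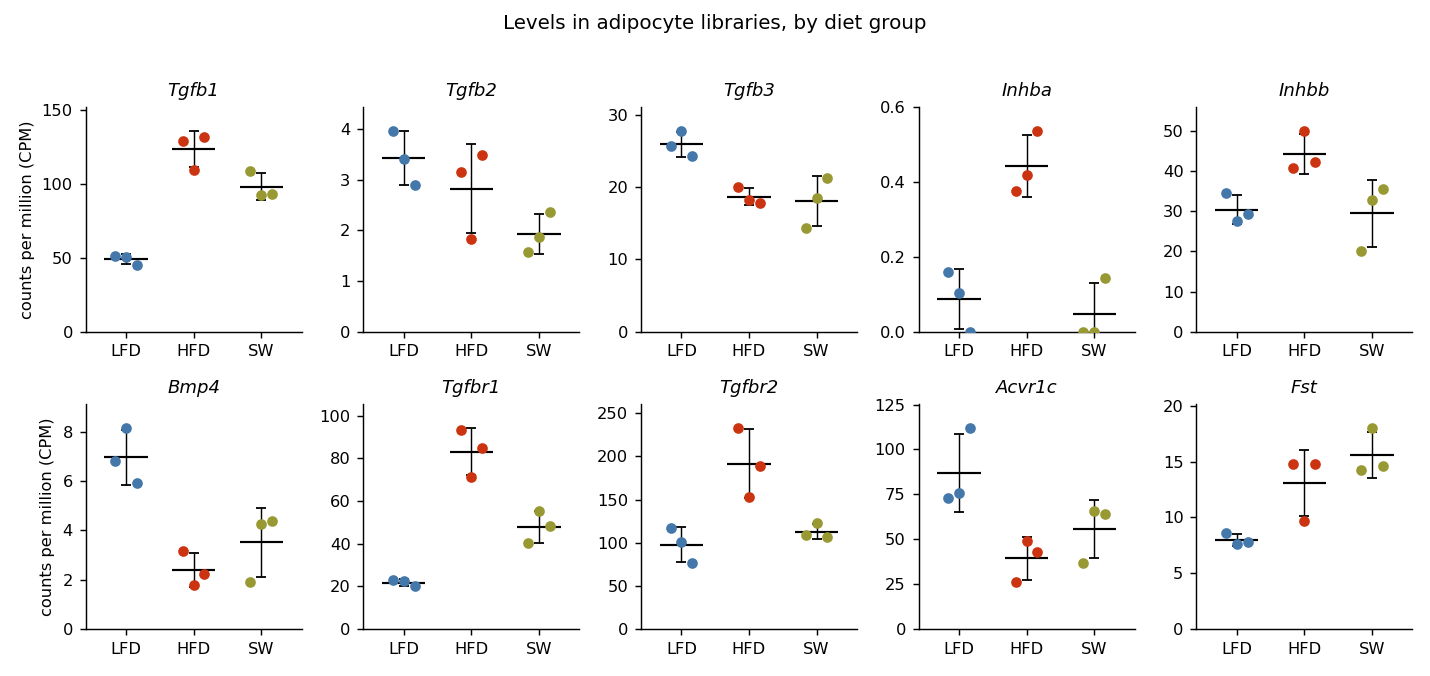
Levels of the 10 genes in the adipocyte fraction (CPM, linear axis from 0), with 1 point per library, the mean as a line and the SD as bars (n = 3 per diet group). Tgfb1, Tgfbr1, Tgfbr2 and Inhbb are highest in HFD libraries, while Tgfb3, Bmp4 and Acvr1c are highest in LFD libraries; Fst is lowest in LFD libraries.

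Set side by side, 3 of the 9 genes tested were lower in SW than in HFD mice (Tgfbr1, Tgfbr2 and Inhbb) and none was higher, where 15.9% of all genes were lower, 15.6% higher and 31.4% called in all. Leaving out 1 library at a time gave 1 to 4 genes, with 1 (Tgfbr1) without HFD library 401 or 403. All SW libraries lay below all HFD libraries for 4 genes (those 3 and Tgfb1) and above them for none, beside 25.2% and 23.3% of all genes. In SW against LFD, 3 were higher (Tgfb1, Tgfbr1 and Fst) and 1 was lower (Tgfb3), beside 10.9% and 6.18% of all genes (17.1% called in all). SW and LFD libraries were fully separate for 3 genes upwards (again Tgfb1, Tgfbr1 and Fst) and for 4 downwards (Tgfb2, Tgfb3, Acvr1c and Bmp4), beside 19.1% and 17.5% of all genes. The median log2 fold change of the 9 genes was 0.55 for HFD against LFD, -0.33 for SW against HFD and -0.03 for SW against LFD, and that of all genes was -0.03, 0.01 and 0.00. These comparisons share libraries, so a change in the HFD libraries enters both of the first with opposite sign. Expressed as a ratio of group means, SW adipocytes held 0.795 of the HFD level of Tgfb1, 0.576 of Tgfbr1 and 0.588 of Tgfbr2.

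**Figure D2:**
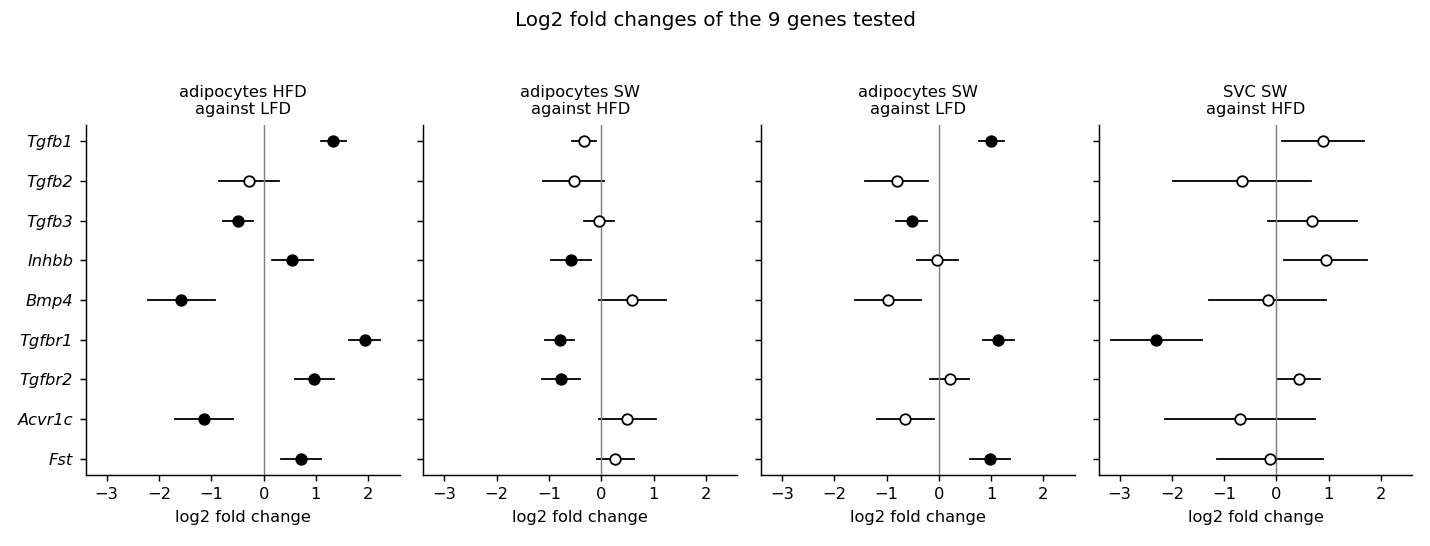
Log2 fold changes of the 9 genes tested in adipocytes (3 comparisons) and in SVC (SW against HFD), with 95% intervals from the standard errors; filled points passed an adjusted p of 0.05. In adipocytes 8 points are filled for HFD against LFD, 3 for SW against HFD and 4 for SW against LFD, and in SVC 1 point, Tgfbr1 at -2.30.

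Transcripts of other cell types moved with these groups in the adipocyte fraction. The counts of called markers stand beside the shares of all genes tested. These shares were 26.5% higher and 25.0% lower in HFD against LFD. They were 15.6% and 15.9% in SW against HFD, and 10.9% and 6.18% in SW against LFD. All 11 macrophage markers were higher in HFD than in LFD libraries (median log2 fold change 4.09) and in SW than in LFD libraries (3.00), and 5 of 11 were lower in SW than in HFD libraries (-0.48). This runs beside the rise of Tgfb1, Tgfbr1 and Tgfbr2, and its part in that result was not tested. Of the 8 adipocyte markers, 6 were lower in HFD than in LFD mice (median -1.07) and their summed level was 30920 to 48960 CPM in LFD and 11630 to 19470 CPM in HFD libraries, beside the fall of Acvr1c by 1.14. Of the endothelial markers 5 of 7 were lower (815.5 to 1489 CPM in HFD, 2165 to 2416 CPM in LFD libraries), and so were 5 of 7 mesothelial markers (13.0 to 39.8 and 85.4 to 135 CPM) and 4 of 7 markers of pericytes and smooth muscle (443 to 684 and 1042 to 1447 CPM), beside the falls of Bmp4 and Tgfb3. Fibroblast and progenitor markers were higher for 4 of 8 genes (3165 to 4242 CPM in HFD, 1827 to 2569 CPM in LFD libraries). No marker of the 6 lists named so far was at 0 in an adipocyte library, and their part in the results was not tested. In SW against HFD adipocytes, 4 of 8 adipocyte markers and 2 of 7 endothelial markers were higher and 2 of 8 fibroblast markers were lower. In SW against LFD, 5 of 7 endothelial, 3 of 7 mesothelial and 3 of 7 pericyte and smooth muscle markers were lower, beside the falls of Tgfb3, Acta2, Tagln and Id4 in that comparison. None of the 5 T cell and 5 B cell markers tested was called in HFD against LFD, and 2 of each were higher in SW than in HFD mice. Of 3 testis and epididymis markers tested, 1 (Star) was higher and 1 (Insl3) was lower in HFD than in LFD mice. Insl3 was higher again in SW than in HFD mice, where Star was not called. The summed level of this list was at most 13.6 CPM in the adipocyte fraction.

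**Figure D3:**
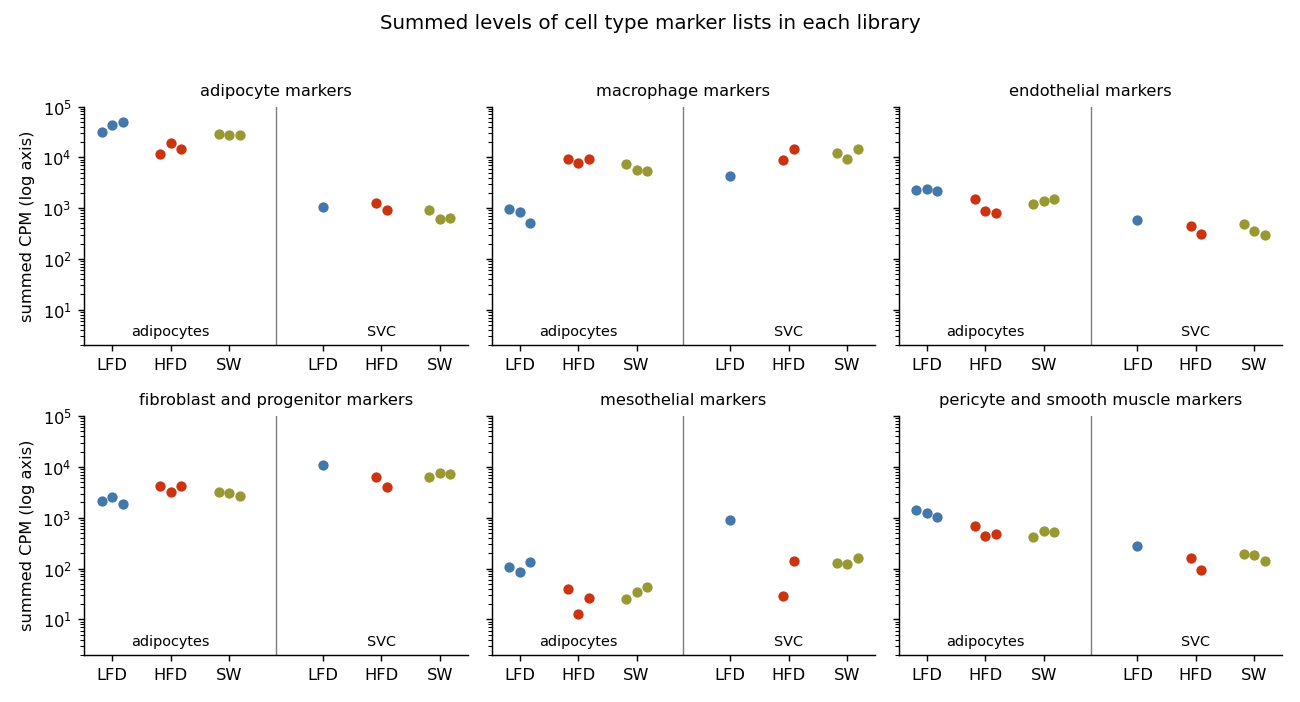
Summed CPM (log axis) of 6 cell type marker lists in each library, adipocytes on the left and SVC on the right of each panel. In adipocyte libraries the macrophage sum rises from at most 944.2 CPM in LFD to at least 7700 CPM in HFD, and the adipocyte sum is lowest in HFD.

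To see the rest of the pathway, 99 further genes were grouped by role, and 77 of them were tested in adipocytes. In HFD against LFD, 19 were higher and 26 were lower, together 45 of 77 beside 51.5% of all genes (26.5% higher and 25.0% lower, the shares beside which the counts by role stand). Among ligands, 1 of 12 tested was higher and 3 were lower. Gdf3, a ligand of the activin branch, went from 0.264 to 1.74 CPM in LFD to 21.8 to 22.8 CPM in HFD libraries (log2 fold change 5.06, SE 0.40, adjusted p = 1.27e-05 by edgeR). In SW libraries it was at 9.80 to 14.4 CPM, which was lower than in HFD (log2 fold change -0.95, SE 0.27, adjusted p = 0.0263) and 4.11 above LFD (SE 0.41, adjusted p = 0.000117). In SVC, Gdf3 was at 1.05 CPM in the LFD library, 23.8 to 28.7 CPM in HFD and 17.3 to 21.8 CPM in SW libraries. Bmp2, Bmp7 and Gdf10 were lower in HFD than in LFD adipocytes.

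Of 13 receptors and co-receptors, 3 were higher and 5 were lower in HFD than in LFD mice, beside 26.5% and 25.0% of all genes. Bmpr2, the type II receptor of BMPs, was at 0.923 to 2.06 CPM in LFD, 7.72 to 15.7 CPM in HFD and 1.16 to 3.22 CPM in SW libraries. It rose in HFD (log2 fold change 3.19, SE 0.43, adjusted p = 0.000236 by edgeR) and fell from HFD to SW (-2.52, SE 0.39, adjusted p = 0.00443), so its SW libraries were back near the LFD range. Amhr2, the type II receptor of anti-Müllerian hormone, was at 4.76 to 8.30 CPM in LFD and 1.13 to 1.71 CPM in HFD libraries and rose again in SW (1.61 above HFD, SE 0.39, adjusted p = 0.0147).

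Of 12 genes for latency and activation of TGF-beta, 5 were higher in HFD and 1 was lower, beside the same 26.5% and 25.0%. Nrros, which tethers latent TGF-beta on macrophages, was 25.6 to 43.5 CPM in LFD, 115 to 135 CPM in HFD and 78.3 to 128 CPM in SW libraries (HFD against LFD 1.80, SE 0.22, adjusted p = 0.000153 by edgeR; SW against LFD 1.46, SE 0.22, adjusted p = 0.00154). Fbn1, a microfibril protein that stores latent TGF-beta in the matrix, rose in HFD (1.64, SE 0.27, adjusted p = 0.00078) and fell in SW against HFD (-1.37, SE 0.27, adjusted p = 0.00783), from 167 to 274 CPM down to 79.3 to 102 CPM. Ltbp2, a protein of the same family as the latent TGF-beta binders, fell from HFD to SW as well (-0.92, SE 0.21, adjusted p = 0.0128). Itgav, the integrin subunit of the complexes that release TGF-beta, was 1.05 higher in SW than in LFD mice (SE 0.16, adjusted p = 0.00143).

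Of 11 secreted inhibitors, 5 were lower and 2 were higher in HFD than in LFD mice, and Smads and their regulators gave 5 higher and 3 lower of 15. Smad1 and the inhibitory Smad7 were lower, and Smad2, Smad3 and Smad4 were higher by 0.32 to 0.61 on the log2 scale. Tgif1, a Smad corepressor, was 1.24 higher in SW than in LFD mice (SE 0.17, adjusted p = 0.000756 by edgeR).

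The target genes were the list with the lowest median. In HFD against LFD, 9 of 14 were lower and 3 higher (Id2, Postn and Tgfbi), with a median log2 fold change of -1.12 beside -0.03 for all genes. The falls were led by Tagln (-2.51, SE 0.20, adjusted p = 1.41e-05 by edgeR) and Acta2 (-2.36, SE 0.18, adjusted p = 1.21e-05), contractile proteins induced by TGF-beta in fibroblasts and abundant in smooth muscle. Acta2 was at 551 to 574 CPM in LFD, 88.3 to 122 CPM in HFD and 149 to 218 CPM in SW libraries. Id1 (-2.29, SE 0.27, adjusted p = 0.000117) and Id4 (-2.38, SE 0.29, adjusted p = 0.000135), inhibitors of basic helix-loop-helix factors that BMPs induce, fell too, and Id1 was at 88.2 to 132 CPM in LFD, 14.8 to 27.3 CPM in HFD and 33.3 to 58.6 CPM in SW libraries. In SW against HFD, 6 of the 14 were higher and 1 was lower (median 0.40), beside 15.6% and 15.9% of all genes. The rises included Id4 (1.05, SE 0.29, adjusted p = 0.0241 by edgeR), Tagln (1.05, SE 0.19, adjusted p = 0.00679) and Atoh8 (1.00, SE 0.20, adjusted p = 0.00805), another BMP target. Against LFD, 6 were still lower in SW mice and 1 was higher (Tgfbi), beside 6.18% and 10.9% of all genes. Acta2 was at -1.63 (SE 0.18, adjusted p = 0.000204 by edgeR), Tagln at -1.46 (SE 0.19, adjusted p = 0.000656) and Id4 at -1.33 (SE 0.28, adjusted p = 0.00908). Acta2 and Tagln fell beside the markers of pericytes and smooth muscle, a list that holds neither gene, and the part of those cells was not tested.

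Over all 77 genes, SW against HFD gave 10 higher and 14 lower, beside 15.6% and 15.9% of all genes tested, and SW against LFD gave 6 higher and 12 lower, beside 10.9% and 6.18%. In SW against HFD, the calls of Gdf3 and Id4 (adjusted p up to 0.0797 and 0.0703) were lost without HFD library 403 or SW library 408 or 409, and that of Gdf3 also without HFD library 401 or 402. That of Amhr2 was lost without HFD library 401 (adjusted p = 0.0507) or 403 (0.0567), and that of Ltbp2 without HFD library 403 (0.0514) and with the correction for transcript length (0.0684). In HFD against LFD, Gdf3, Bmpr2, Nrros, Fbn1, Tagln, Id4, Acta2 and Id1 kept their calls in every alternative run. In SW against LFD, the same held for Gdf3, Nrros, Tgif1, Itgav, Acta2, Tagln and Id4. For the other pathway genes named in these comparisons, such as Bmp7, Smad2 and Tgfbi, the alternatives are not given here.

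**Figure D4:**
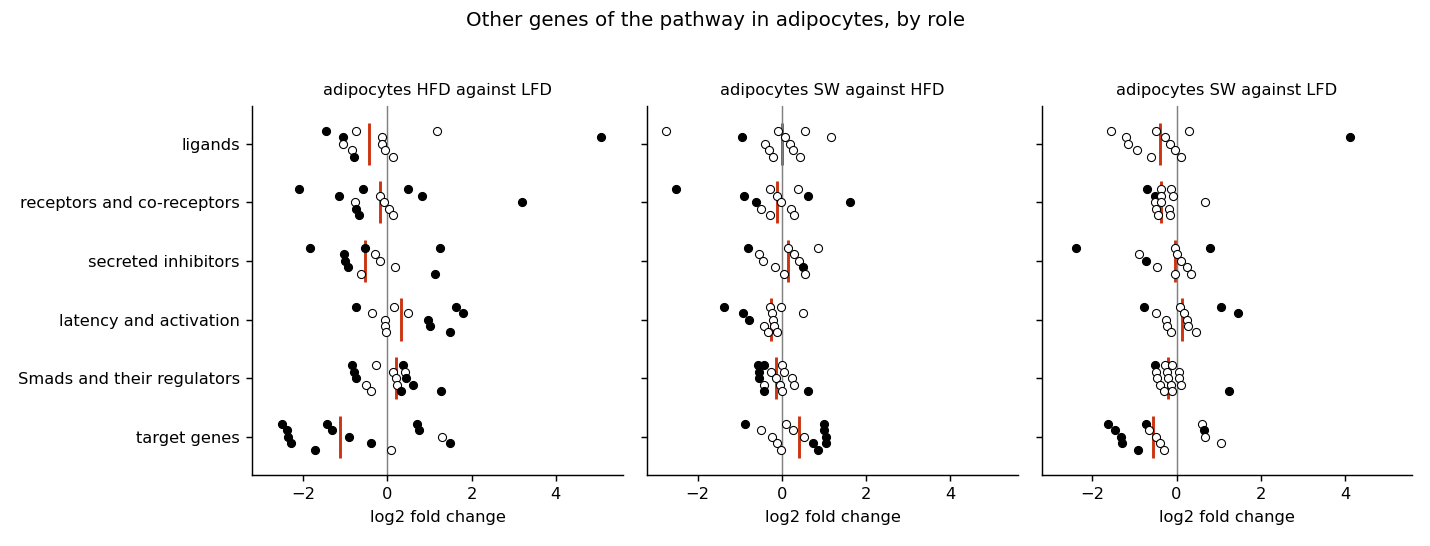
Log2 fold changes of 77 further pathway genes in adipocytes, grouped by role; filled points passed an adjusted p of 0.05 and red bars are list medians. Target genes have a median of -1.12 in HFD against LFD, 0.40 in SW against HFD and -0.56 in SW against LFD, and the point at 5.06 among the ligands is Gdf3.

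In SVC the spread between libraries was larger and fewer differences could be called. Of the 9 genes tested, 1 passed in SW against HFD, Tgfbr1, which was lower, beside 17.5% of all 16319 genes (5.71% higher and 11.7% lower). The SW and HFD libraries did not overlap for 3 genes upwards (Tgfb1, Tgfbr2 and Inhbb) and 2 downwards (Tgfbr1 and Acvr1c), beside 28.5% and 30.0% of all genes. Comparisons with LFD mice rest on 1 library there (236) and are given as values without a test, with exact binomial 95% intervals that cover counting error only.

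Tgfb1 and Tgfbr2 had the highest levels of the 10 genes in SVC. Tgfb1 was at 342 CPM in the LFD library (interval 327 to 357), at 153 and 366 CPM in HFD libraries 212 and 411, and at 526, 424 and 501 CPM in SW libraries 412, 413 and 414. All SW libraries lay above both HFD libraries, but the HFD libraries lay far apart, and the log2 difference of 0.90 (SE 0.40) missed the threshold (adjusted p = 0.138 by edgeR). Without HFD library 411 it was 1.67 (adjusted p = 0.0122). Macrophage markers summed to 4351 CPM in the LFD library, 8961 to 14520 CPM in HFD and 9268 to 14320 CPM in SW libraries of the SVC. Fibroblast and progenitor markers summed to 10880 CPM in the LFD library, 4098 to 6305 CPM in HFD and 6334 to 7588 CPM in SW libraries. For mesothelial markers the sums were 892.2, 29.3 to 140.9 and 125.6 to 163.6 CPM. The part of these cells in the SVC levels was not tested.

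Tgfbr1 was at 2.79 CPM in the LFD library (16 counts, interval 1.597 to 4.54), at 67.5 and 33.9 CPM in HFD and at 5.88, 12.5 and 12.5 CPM in SW libraries. The HFD libraries stood above all others. The fall from HFD to SW was 2.30 on the log2 scale (-2.30, SE 0.44, adjusted p = 0.0377 by edgeR), but it was -1.64 without HFD library 212 (adjusted p = 0.0963), and it missed the threshold without SW library 412 (0.155), 413 (0.0563) or 414 (0.0593). The HFD libraries of the SVC also differed from the others by base composition: in SW against HFD, genes tested with a GC content up to 46.8% had a median log2 fold change of -1.24 and those of 53% and more one of 0.65. Genes of low GC content lay above their mean over the SVC libraries by a median log2 of 0.796 in library 212 and 0.401 in library 411. The longest Tgfbr1 transcript has 41% GC, and corrected for GC content the difference was -0.80 (adjusted p = 0.162).

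Tgfbr2 was at 509 CPM in the LFD library (interval 491 to 528), at 223 and 215 CPM in HFD and at 271, 311 and 298 CPM in SW libraries. The SW libraries lay above both HFD libraries and below the LFD library, with a log2 difference between SW and HFD of 0.42 (SE 0.21, adjusted p = 0.172 by edgeR). Tgfb3 was at 41.2 CPM in the LFD library (interval 36.1 to 46.8), at 23.1 and 8.76 CPM in HFD and at 21.2, 29.9 and 26.0 CPM in SW libraries (SW against HFD 0.69, SE 0.43, adjusted p = 0.262). Inhbb was at 23.1 CPM in the LFD library (interval 19.3 to 27.3), at 11.3 and 5.31 CPM in HFD and at 15.7, 19.5 and 12.6 CPM in SW libraries. Its SW libraries lay above both HFD libraries (0.94, SE 0.41, adjusted p = 0.13). With the correction for transcript length, Tgfbr2 (1.21, adjusted p = 0.0354) and Inhbb (1.26, adjusted p = 0.0479) passed in SW against HFD.

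The differences of the remaining genes between SW and HFD SVC were within their errors. Fst was at 16.2 CPM in the LFD library (interval 13.1 to 19.9), at 31.5 and 9.31 CPM in HFD and at 13.9, 21.2 and 20.9 CPM in SW libraries (log2 difference -0.13, 95% interval -1.14 to 0.89). Bmp4 was at 4.02 CPM in the LFD library (interval 2.55 to 6.03), at 2.67 and 1.10 CPM in HFD and at 1.958, 1.86 and 1.21 CPM in SW libraries. Tgfb2 was at 9.43 CPM in the LFD library (interval 7.08 to 12.3), at 4.81 and 1.72 CPM in HFD and at 1.75, 3.31 and 0.986 CPM in SW libraries. Acvr1c had 8 counts in the LFD library (1.40 CPM, interval 0.603 to 2.75), 10 counts in each HFD library (0.580 and 0.690 CPM) and 4, 10 and 3 counts in the SW libraries (0.412, 0.413 and 0.329 CPM). Inhba had 4 counts in the LFD library, 2 and 3 in HFD and 0, 6 and 0 in SW libraries, and it was not tested. A count of 0 allows about 3 counts by the 1-sided 95% limit.

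**Figure D5:**
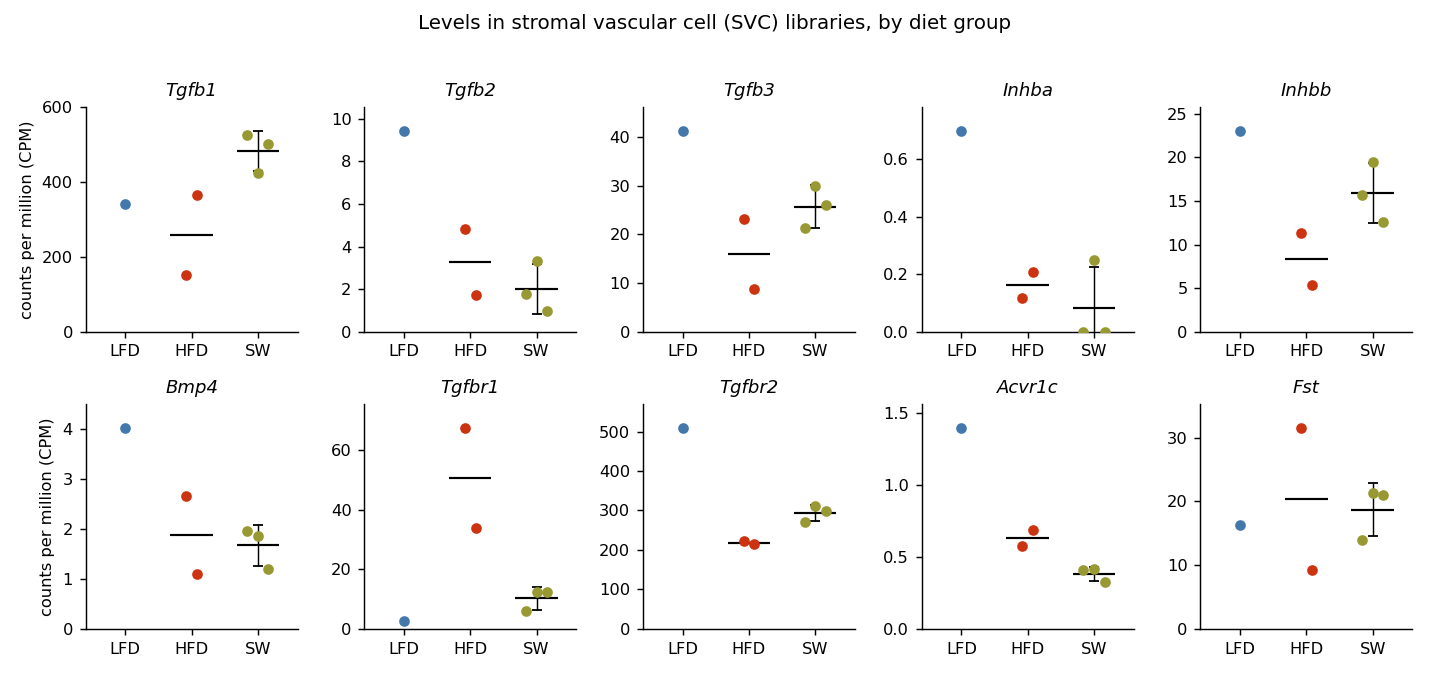
Levels of the 10 genes in SVC (CPM, linear axis from 0), with 1 point per library, the mean as a line where a group has 2 or more libraries and the SD as bars where it has 3 (LFD n = 1, HFD n = 2, SW n = 3). Tgfbr1 is at 67.5 and 33.9 CPM in HFD and at most 12.5 CPM in SW libraries, and the HFD libraries differ widely for Tgfb1, Tgfb3 and Fst.

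Among the further pathway genes in SVC, 17 of 81 tested were higher and 6 were lower in SW than in HFD mice, beside 5.71% and 11.7% of all genes. The rises were led by Atoh8 (2.34, SE 0.30, adjusted p = 0.0362 by edgeR), Ltbp4, which binds latent TGF-beta in the matrix (1.93, SE 0.29, adjusted p = 0.0362), Acta2 (1.92, SE 0.25, adjusted p = 0.0362) and the BMP co-receptor Rgma (1.89, SE 0.21, adjusted p = 0.0362). The falls were led by Postn, a matrix protein induced by TGF-beta (-2.80, SE 0.50, adjusted p = 0.0362), the Smad repressor Skil (-2.15, SE 0.56, adjusted p = 0.0472), Smad2 (-1.89, SE 0.43, adjusted p = 0.0414) and Itgav (-1.63, SE 0.34, adjusted p = 0.0381). Acta2 was at 35.5 to 48.9 CPM in HFD and 146 to 168 CPM in SW libraries. With the correction for GC content none of the further genes passed (0 of all genes by edgeR, with 4538 under an unadjusted p of 0.05). The corrected log2 fold change was 2.04 for Acta2, close to its uncorrected value, while the others were smaller than before: 1.51 for Atoh8, 1.11 for Ltbp4, 1.10 for Rgma, -0.97 for Postn, -0.60 for Skil, -0.90 for Smad2 and -0.46 for Itgav. None passed without SW library 412 or 413 either (4217 and 5435 of all genes under an unadjusted p of 0.05), while 10 passed without HFD library 212, 6 without SW library 414 and 39 without HFD library 411.

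The fractions were compared within a diet in 1 fit of all 15 libraries, on CPM scaled jointly. In SW mice, Tgfb1 was at 82.5 to 97.1 CPM in adipocyte and 518 to 618 CPM in SVC libraries, 6.58-fold higher in SVC (log2 2.72, SE 0.28, adjusted p = 2.62e-06 by edgeR). Tgfbr2 was at 95.5 to 109.8 and 319 to 381 CPM, 3.49-fold higher in SVC (log2 1.80, SE 0.19, adjusted p = 3.2e-06). Acvr1c was 103.5-fold lower in SVC, at 0.392 to 0.506 CPM against 32.8 to 58.9 CPM in adipocytes (log2 -6.69, SE 0.40, adjusted p = 1.15e-07). Tgfb3 was 1.91-fold higher in SVC (log2 0.93, SE 0.26, adjusted p = 0.00652), a call that was lost without adipocyte SW library 407 (adjusted p = 0.0597), without SVC SW library 413 (0.055) and with the correction for GC content (0.32, adjusted p = 0.348). Tgfbr1 was lower in SVC (log2 -1.78, SE 0.28, adjusted p = 8.57e-05), and with the GC correction that difference was -0.06 (adjusted p = 0.805). The same correction brought 4 other genes past the threshold, Fst at 1.98 (adjusted p = 4.84e-05, against 0.68 and 0.0776 without it), Inhbb at -1.67 (0.00065), Tgfb2 at 1.25 (0.0203) and Bmp4 at -1.16 (0.0292). Without the correction 3 genes were higher and 2 lower in SVC of 9 tested, beside 35.6% and 32.8% of all 17441 genes (68.4% in all). The libraries did not overlap for 4 genes upwards (Tgfb1, Tgfb3, Tgfbr2 and Fst) and 2 downwards, beside 35.8% and 35.0% of all genes. Base composition moved with this comparison as well: genes of low GC content (the lower of 3 equal parts) had a median log2 difference of -1.34 and those of high GC content one of 1.16.

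In HFD mice, 1 of 9 genes was higher and 2 were lower in SVC than in adipocytes, beside 16.2% and 12.9% of all genes (29.1% in all). The libraries did not overlap for 2 genes upwards (Tgfb1 and Tgfbr2) and 2 downwards (Inhbb and Acvr1c), beside 25.8% and 25.7% of all genes. Tgfb1 was 2.67-fold higher in SVC (log2 1.42, SE 0.29, adjusted p = 0.00369 by edgeR), at 163 and 433 CPM against 99.6 to 119 CPM in adipocytes, and without SVC library 411 the difference was 0.54 (adjusted p = 0.0634). Fitted on these groups alone, it had an adjusted p of 0.0592. Inhbb was 4.34-fold lower (log2 -2.12, SE 0.32, adjusted p = 0.000563), at 12.0 and 6.28 CPM against 36.3 to 45.4 CPM. Acvr1c was 49.7-fold lower (log2 -5.64, SE 0.44, adjusted p = 6.78e-06), at 0.616 and 0.816 CPM against 23.2 to 44.7 CPM. Tgfbr2 (0.64, adjusted p = 0.0412) and Fst (1.31, adjusted p = 0.00604) passed with the GC correction. Tgfbr2 also passed with DESeq2 (adjusted p = 0.0341), upper-quartile factors (0.0424), the length correction (0.00456) and without adipocyte HFD library 401 (0.0448). Fst also passed with upper-quartile factors (0.0465) and with at least 10 counts in every library (0.0481). Without SVC library 212, which leaves 1 HFD library in SVC, the difference was -0.90 for Tgfbr1 and -0.70 for Tgfb3. In SW mice Inhbb differed by -0.46 (SE 0.26, adjusted p = 0.134) between the fractions, a difference that passed without adipocyte SW library 407 (-0.77, adjusted p = 0.0212), SVC HFD library 411 (-0.55, adjusted p = 0.0394) or SVC SW library 413 (-0.76, adjusted p = 0.0374).

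For 4 of the 9 genes, SVC and adipocytes changed unequally between HFD and SW mice by the interaction term of the joint fit (Tgfb1, Tgfbr2 and Inhbb upwards in SVC against adipocytes, Tgfbr1 downwards), beside 27.1% of all genes (11.4% upwards and 15.7% downwards). With the correction for GC content 1 of them remained, Tgfbr2.

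Per kilobase of the longest transcript, the order of the genes within a fraction could be read. In LFD adipocytes Tgfb1 was highest, at 19.1 CPM per kilobase, followed by Tgfbr2 (12.1), Acvr1c (9.49), Tgfb3 (7.67) and Inhbb (7.14), where each neighbour from Tgfbr2 to Inhbb overlapped with the next. Below them came Tgfbr1 (3.78), Bmp4 (3.38) and Fst (2.73), again overlapping, then Tgfb2 (0.669) and Inhba (0.0137). In HFD adipocytes Tgfb1 (48.1), Tgfbr2 (23.7), Tgfbr1 (14.5) and Inhbb (10.4) led and did not overlap with each other, and Acvr1c had gone from the third to the seventh place (4.29), where it overlapped with Fst (4.48). In SW adipocytes Tgfb1 (38.2) and Tgfbr2 (13.9) stood apart from the rest, and the libraries of neighbours from Tgfbr1 (8.32) down to Tgfb3 (5.34) overlapped. In SVC, Tgfb1 and Tgfbr2 led in every diet group, at 101 and 27.0 CPM per kilobase in HFD and at 188 and 36.3 in SW libraries, and Acvr1c was at most 0.153.

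The genes most like each of the 9 in their level over the 9 adipocyte libraries were taken by Pearson's r of log2 CPM. As the libraries fall into diet groups, r mostly follows the group means and is a description only. Tgfb1 was most like 5031439G07Rik, Cadm1 and Vat1 (r of 0.997 to 0.999), and Tgfbr1 most like Snx2, Tpp1 and Asah1 (0.994 to 0.996), where Tpp1 and Asah1 encode lysosomal enzymes. Tgfbr2 was most like Tbc1d1, Rbl1 and Ckap5 (0.990 to 0.991), Inhbb most like Rnf24, Pgam5 and Klc2 (0.983 to 0.984), and Acvr1c most like Tmeff1, Clmn and Hibadh (0.985 to 0.994). Bmp4 was most like Wscd1, Bmx and Cd300lg (0.972 to 0.984), Tgfb3 most like Fez2, Magix and Hoxb2 (0.969 to 0.972), Tgfb2 most like Sema3b, Helz and Mmp17 (0.939 to 0.953), and Fst most like Zscan2, Mmp11 and Ttc5 (0.926 to 0.939).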

How the data were processed

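RNA of adipocytes and SVC from epididymal fat was measured by poly(A) RNA sequencing. The authors aligned the reads by Bowtie2 and quantified genes by RSEM, and the deposited values are the expected counts of RSEM, written as whole numbers without normalization. The submitters' processing notes also name mm9 and limma; tool versions and the annotation release are not given in the sources used here. RSEM divides reads that similar transcripts share. The labels list 26 records of 18 libraries. Of the tables' columns, 15 name a fraction and a diet group and were used as replicates of that group; 3 columns of values in the SVC table match no group's label and were not used. No 2 libraries of a group agreed within counting noise (chi-square per degree of freedom 13.7 to 408). The highest value belonged to SVC HFD libraries 212 and 411. In adipocytes, SW library 407 stood further from SW libraries 408 and 409 (96.8 and 87) than those stood from each other (13.7). Totals of 5781902 to 23725647 counts set the precision: 3 counts, the upper limit that a count of 0 allows, are 0.124 to 0.524 CPM.

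Each fraction was fitted in edgeR 4.0.16 (R 4.3.3) with filterByExpr (minimum count 10), TMM factors and a robust quasi-likelihood fit of all its diet groups without covariates. Benjamini-Hochberg adjustment ran over all genes tested, with a threshold of 0.05; both fractions together were fitted the same way. SE is the log2 fold change divided by the root of F. The 95% intervals of fold changes use the normal quantile and are narrower than the F test allows where libraries are few. The scripts were tested on simulated counts. GC content and transcript length come from the longest GENCODE M21 transcript (GRCm38), found for 99% of the adipocyte and SVC genes tested and 98.8% of those in the joint fit; gene positions come from that annotation too. Alternatives planned were DESeq2 1.42.0, limma-voom (limma 3.58.1), RLE and upper-quartile factors, other filters, only the groups compared, each library left out and CPM without TMM factors; corrections for GC content and transcript length (lowess offsets, span 0.3) were chosen after seeing the data.

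The 10 genes, the lists and the tests were chosen with earlier results of these data known. Each of the 10 is given in full. Of the other pathway genes, the text names the 4 largest rises and 4 largest falls per comparison among those called with a mean of at least 1 CPM; Bmp2, Bmp7, Gdf10, Id2, Postn, Tgfbi and the Smads in the HFD comparison were named after their values were seen. For each gene tested, the 3 most correlated genes are named, from those whose log2 CPM averaged 1 or more. A result that the rule selects for SW against LFD is not reported here. Cell type markers are lists of textbook genes.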

Additional observations from a re-analysis of the deposited data

Results flagged for a closer look

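By the interaction term of edgeR's joint fit, 4 of the 9 genes tested changed unequally in SVC and adipocytes between HFD and SW mice. The difference (SVC minus adipocytes, log2) was 1.30 for Tgfb1 (SE 0.40, adjusted p = 0.0284), 1.29 for Tgfbr2 (SE 0.28, adjusted p = 0.00561), 1.66 for Inhbb (SE 0.40, adjusted p = 0.00948) and -1.36 for Tgfbr1 (SE 0.40, adjusted p = 0.0237). Tgfbr2 and Inhbb were lower in SW than in HFD adipocytes, while in SVC all of their SW libraries lay above both HFD libraries. With the GC correction the differences were 0.95 for Tgfb1 (adjusted p = 0.0944), 0.97 for Inhbb (0.184) and -0.12 for Tgfbr1 (0.814), and none of these passed. The Tgfb1 difference also missed the threshold with only the groups compared (adjusted p = 0.0523), and it missed the threshold without adipocyte HFD library 401 or 403, adipocyte SW library 408 or 409 or SVC SW library 412 (adjusted p = 0.0537 to 0.0619), and so did the Tgfbr1 difference without adipocyte HFD library 402 (0.0551), adipocyte SW library 408 (0.0575) or SVC HFD library 212 (0.142).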

How the results depend on the processing

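No paired analysis was possible because the columns of the tables carry numbers that are not the replicate numbers of the labels. Of 1259 recomputed values of the 10 genes, 1173 kept their direction and side of the threshold or stayed short of it, 53 fell short of the threshold, 32 newly passed and 1 reversed. The reversed value was Tgfb3 in SVC against adipocytes of HFD mice, 0.06 (adjusted p = 0.904) and -0.70 (adjusted p = 0.0466) without SVC HFD library 212; leaving out 1 library at a time gave -0.70 to 0.54. In SVC, SW against HFD called 2849 genes, but 5166 with DESeq2, 1719 with limma-voom and 0 with the GC correction (4538 under an unadjusted p of 0.05); of the 10 genes it called 1, then 0 with the GC correction and 3 with the length correction. In HFD mice, SVC against adipocytes called 3 of the genes, 5 with upper-quartile factors and 5 with the GC correction, and 5078 of all genes, 2030 with only the groups compared. The difference between fractions was called for 4 genes, 1 with the GC correction, and for 4727 of all genes, 2265 with it. Leaving out 1 library at a time gave, for adipocytes, 6 to 8 of the 10 genes (5757 to 8331 of all genes) in HFD against LFD and 1 to 4 (1522 to 4554) in SW against HFD. In the latter, library 403 and library 401 of HFD mice gave 1 each when left out (1522 and 2299 of all genes). In SVC, SW against HFD gave 0 to 2 (0 to 6213), with 0 of all genes without SW library 412 or 413 (4217 and 5435 under an unadjusted p of 0.05), 503 without HFD library 212, 593 without SW library 414 and 6213 without HFD library 411. SVC against adipocytes in HFD mice gave 3 to 5 (2528, without SVC library 411, to 7044), and the difference between fractions gave 2 (without adipocyte SW library 408) to 4 (2936, without SVC HFD library 212, to 6622). With library totals only, group means moved by less than 1 SD, except Tgfbr2 in HFD SVC (219 and 234 CPM). The depth limits Inhba in every library and Acvr1c in SVC, each at 12 counts or fewer.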
